A study of Homo sapiens with 4 samples.

Results

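The IgLON family is a group of 5 closely related cell adhesion genes, namely NEGR1, LSAMP, NTM, OPCML and IGLON5, and its members were taken as the rows of the count table that bear one of these symbols. Of the 24014 genes in the table, 4 were members. OPCML had no row, and each of the listed genes had a count above 0 in at least 1 library. IgLON proteins carry immunoglobulin domains and are held on the outer face of the neuronal membrane by a glycosylphosphatidylinositol (GPI) anchor, a lipid attached to the protein's end. They bind each other and themselves across and along membranes, guide neurite outgrowth and synapse formation, and can be cut from the surface by metalloproteases. NEGR1, neuronal growth regulator 1, promotes neurite growth, LSAMP marks limbic circuits, NTM (neurotrimin) acts on neurite outgrowth, OPCML is an opioid-binding adhesion protein that is silenced in many tumours, and IGLON5 is known as the target of autoantibodies in a neurological disease with sleep disorder.

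To ask how the long non-coding RNA AP1AR-DT acts on transcripts of human neuronal-type cells, RNA was sequenced from SK-N-SH cells, an established human neuroblastoma line. The control cells were labelled wild type and received a lentivirus with an empty vector (2 libraries), and the AP1AR-DT_OE cells received a lentivirus that carries the RNA, named AC109347.1 in the titles (2 libraries). Both groups thus carry a lentiviral vector, which per the study's methods also holds a puromycin resistance gene. The labels of AP1AR-DT_OE 2 give another suffix, AC109347.2, for genotype and treatment, and its title was followed. The labels do not say that replicates were separate cultures, so the p-values measure the spread between these samples, which may be technical.

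The members resemble each other in coding sequence, which matters for how reads of 1 member can be told from those of another. NEGR1 was 64.2% identical to LSAMP, 63.3% to OPCML, 62.4% to NTM and 57.2% to IGLON5 over the aligned bases of their complete coding sequences. The closest pair was NTM and OPCML, at 74.4%. The longest run of identical bases between NEGR1 and another member was 23 bases, in LSAMP, but NTM and OPCML shared a run of 90 bases. The most conserved stretch of 60 bases without a gap is shown here for each member, 5′ to 3′ on the coding strand, with the 31 bases that are the same in all 5 in capitals. The sequences are from GENCODE v44 transcripts.
NEGR1: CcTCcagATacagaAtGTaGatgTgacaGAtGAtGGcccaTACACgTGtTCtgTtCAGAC
LSAMP: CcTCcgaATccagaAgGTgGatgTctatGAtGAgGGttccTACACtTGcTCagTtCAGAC
NTM: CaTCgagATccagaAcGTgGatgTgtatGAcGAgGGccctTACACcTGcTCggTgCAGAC
OPCML: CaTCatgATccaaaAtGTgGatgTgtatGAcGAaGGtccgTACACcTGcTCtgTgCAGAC
IGLON5: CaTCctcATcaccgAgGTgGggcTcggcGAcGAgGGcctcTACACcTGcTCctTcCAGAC
It begins at base 306 of the NEGR1 coding sequence and at base 288 of that of IGLON5. Against NEGR1 it differed at 15 positions in NTM, at 16 in LSAMP and in OPCML, and at 26 in IGLON5. The study measured NEGR1 by PCR with a primer pair whose sites tell it from the others.
NEGR1 forward primer: TAAATCTGGCACCGTGACCC
NEGR1 reverse primer: GGGCTGTACTTGGAGGGTT
Both matched without a mismatch in 2 annotated NEGR1 transcripts, with a product of 266 bases in each, and neither matched a transcript of the other members. By PCR and Western blotting the paper reports lower NEGR1 RNA and protein in SK-N-SH cells that overexpress AP1AR-DT. Those assays are separate from the counts used here.

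The libraries held between 21988065 and 26184599 counts, with a count above 0 for between 19833 and 21280 genes. AP1AR-DT, listed as RP11-73K9.2, was counted 3 and 18 times with the empty vector and 680 and 1065 times with its own, a log2 fold change of 6.63 (SE 0.64, DESeq2 adjusted p = 3.64e-21). Within both groups the replicates differed along GC content in the same direction. Across 13284 genes averaging 50 or more normalized counts, the log2 ratio of control 2 to control 1 fell with GC content (Spearman rho -0.770, a description over genes of 1 pair of libraries), and that of AP1AR-DT_OE 2 to AP1AR-DT_OE 1 did too (rho -0.647). Same-numbered libraries also differed along GC content. For AP1AR-DT_OE over control, rho was -0.340 for number 1 and 0.621 for number 2. Of the fixed marker lists, 7 of 8 adrenergic neuroblast genes and 7 of 7 mesenchymal genes had counts. Their summed normalized counts ran from 24067 to 29790 and from 139098 to 190525 over the 4 libraries. Schwann cell and glia markers summed to 88.7 to 140.4, with SOX10 not listed, mature neuron markers to 151.9 to 273.3, and the 3 blood markers were not listed. No marker was called in the DESeq2 fit on all 4 libraries with neither a block nor GC correction. The mesenchymal factor PRRX1, named after its values were seen, had 2432 and 14724 control counts, against 1131 and 2263 in AP1AR-DT_OE, with both AP1AR-DT_OE libraries below both controls. Its log2 fold change was -2.02 (SE 0.61, DESeq2 adjusted p = 0.431), and it was -0.66 without control 2, which stood apart. It was called with the replicate block (-1.75, adjusted p = 1.10e-07), with the GC correction (-1.76, adjusted p = 0.00125) and without control 1 (-2.71, adjusted p = 4.23e-06). In the DESeq2 fit on all 4 libraries the other mesenchymal genes went both ways. Their log2 fold changes were 0.14 (COL1A1), 0.12 (VIM), 0.06 (FN1), -0.05 (CD44), -0.20 (YAP1) and -0.41 (SNAI2). The part of PRRX1, or of a mesenchymal cell state, in the members' values was not tested.

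NEGR1 was the member whose groups did not overlap, and it was close to the limit of detection. It had 6 counts in control 1 and 19 in control 2, and 0 in AP1AR-DT_OE 1 and in AP1AR-DT_OE 2. After division by the size factors these were 6.83 and 14.7 normalized counts in the controls (10.7 ± 5.53, SD, n = 2) and 0 in the others. A pair of reads was worth about 4 counts in this table, since low values piled up at 4 (3287 entries, against 2136 at 3 and 1509 at 5), so the 25 control counts stand for about 6.25 read pairs (exact Poisson 95% interval 2.20 to 13.1, computed for 6 whole pairs), and 0 pairs in AP1AR-DT_OE has an upper limit of 3.69. At the control level, 5.52 pairs would have been counted in the AP1AR-DT_OE libraries, which were of similar depth to the controls. Intervals cover counting error only. In bulk RNA, fewer cells with a transcript and less of it per cell cannot be told apart. Against a set floor of 3 read pairs, or 12 counts, over the group, the pooled control level of NEGR1 was 1.84-fold higher. This ratio takes the control level as known, so it does not bound the true change. The limit of 3.69 pairs in AP1AR-DT_OE lay above the 2.20 pairs where the control interval starts. Overlap of separate intervals is no test of a difference, so it does not show that counting error covers this one. Without control 2 the ratio was 1.09, and without control 1 it was 2.34. Without either AP1AR-DT_OE library the floor, at 13.2 or 11.9 normalized counts, lay above the control level of 11.5, so no ratio is given.

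NEGR1 was not called. The fitted log2 fold change of -5.81 (SE 2.62) depends on how counts of 0 are treated and is no measure of size; its unadjusted p in DESeq2 was 0.0268 and its adjusted p was 1.00. None of the 4 measured members was called, while 0.137% of all genes were (33 of 24014), and 0.816% had an unadjusted p under 0.05. Being above 0 in both controls and at 0 in both AP1AR-DT_OE libraries was shared by 329 genes, or 1.37% of all genes, and by 135 of the 3454 genes with 10 to 50 counts in total, or 3.91%. The opposite pattern was found in 0.862% of all genes and in 2.63% of those 3454. When counts were divided by 4, as if each pair counted once, the unadjusted p of NEGR1 was 0.197.

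**Figure D1:**
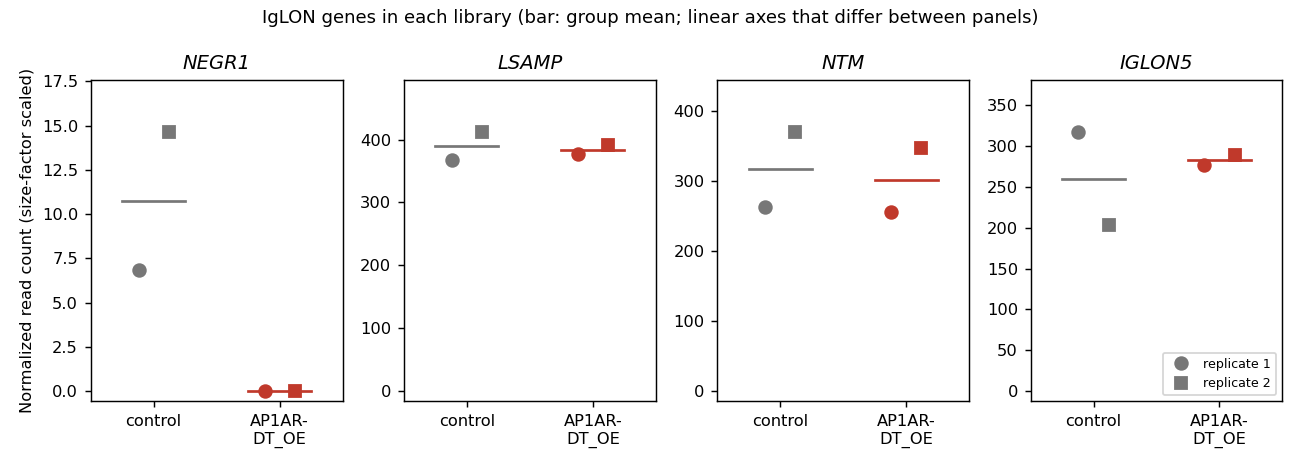
Normalized read count (vertical axis, linear, different in each panel) of the 4 measured IgLON genes in control (grey) and AP1AR-DT_OE (red) libraries of SK-N-SH cells, with replicate 1 as circles, replicate 2 as squares and the mean of each group as a bar. NEGR1 is at 0 in both AP1AR-DT_OE libraries, while the groups overlap for LSAMP, NTM and IGLON5.

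LSAMP, NTM and IGLON5 had between 231 and 535 counts in every library, and none differed between the groups beyond the spread of replicates. LSAMP had 323 and 535 control counts, against 344 and 394 in AP1AR-DT_OE, or 390 ± 31.7 and 384 ± 9.71 normalized counts (SD, n = 2). Its log2 fold change was -0.02 (SE 0.48), with a 95% interval from -0.97 to 0.92, and both AP1AR-DT_OE libraries lay between the controls. Among the 13298 genes with a mean of at least 50, the groups did not overlap for 9.45%, and for none of these 3. NTM had 231 and 481 control counts, against 234 and 350 in AP1AR-DT_OE, or 317 ± 76.3 and 302 ± 64.1 normalized counts, with a log2 fold change of -0.07 (SE 0.52, 95% interval -1.09 to 0.94). In both groups library 2 of NTM was the higher. IGLON5 had 279 and 263 control counts, against 252 and 291 in AP1AR-DT_OE, or 260 ± 81.2 and 283 ± 8.78 normalized counts, with a log2 fold change of 0.12 (SE 0.53, 95% interval -0.91 to 1.15). The controls of IGLON5 lay farthest apart, at 318 and 203 normalized counts, with both AP1AR-DT_OE libraries between them.

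The adjusted p of each of the 3 was 1.00 in DESeq2. These intervals still allow fold changes from 0.512 to 1.89 for LSAMP, from 0.471 to 1.93 for NTM and from 0.531 to 2.22 for IGLON5, so missing the threshold does not show equal levels. Taken within a replicate number, the log2 ratio of AP1AR-DT_OE to control was 0.04 and -0.08 for LSAMP, -0.04 and -0.10 for NTM, and -0.20 and 0.51 for IGLON5. The members differ in GC content, which was 36.9% for the NEGR1 transcript, 40.6% for LSAMP, 49.8% for NTM and 60.6% for IGLON5, against a median of 49.0%. From control 1 to control 2 the log2 ratio was 0.17 for LSAMP, 0.50 for NTM and -0.65 for IGLON5. After correction for the GC trend the log2 fold change of IGLON5 was 0.11 and that of LSAMP was 0.02, of the opposite sign to the value without it. Leaving out control 2 turned the sign of all 3, to 0.07 for LSAMP, 0.21 for NTM and -0.16 for IGLON5, and leaving out AP1AR-DT_OE 1 turned NTM to 0.13.

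**Figure D2:**
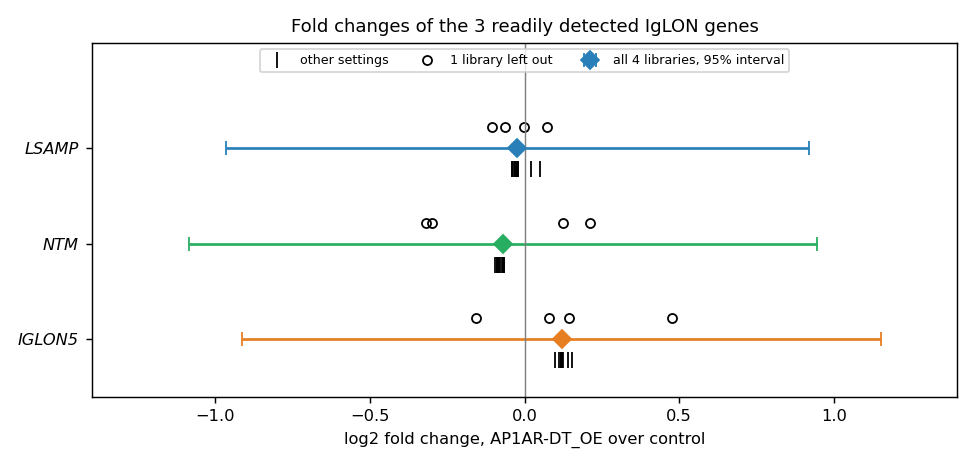
Log2 fold change of AP1AR-DT_OE over control (horizontal axis) for LSAMP, NTM and IGLON5, with the fit on all 4 libraries as a diamond and its 95% interval as a bar. Vertical ticks are other settings of the test and open circles are fits without 1 library; every value lies inside the interval of its gene, and all 3 intervals include 0.

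To compare members with each other, normalized counts were divided by the length of the longest annotated transcript, which is 12.6 kb for NEGR1, 9.42 kb for LSAMP, 3.19 kb for NTM and 3.35 kb for IGLON5. On this scale NEGR1 had 0.542 and 1.16 normalized counts per kb in the controls and 0 in AP1AR-DT_OE. LSAMP had 39.1 and 43.8 per kb in the controls, against 40.1 and 41.5 with AP1AR-DT, NTM had 82.5 and 116 against 80.5 and 109, and IGLON5 had 94.9 and 60.6 against 82.6 and 86.3. LSAMP thus stood 72.1-fold above NEGR1 in control 1 and 37.7-fold in control 2. These ratios are imprecise, since they rest on 6 and 19 NEGR1 counts. Among all genes with a length, NEGR1 lay at percentiles 17.7 and 14.6 in the controls, LSAMP between 53.6 and 56.2, NTM between 64.6 and 67.4 and IGLON5 between 57.9 and 66.8 over the 4 libraries. Genes at 0 count as lower in these percentiles. From the top, NEGR1 ranked 19703 in control 1, where 19855 genes had a count above 0. In control 2 it ranked 20451, where 21280 genes did.

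NEGR1 was the lowest of the 4 in each library and LSAMP the next. NTM and IGLON5 could not be ordered, since the ratio of NTM to IGLON5 was 0.869 and 1.92 in the controls, against 0.974 and 1.26 with AP1AR-DT. The order above NEGR1 also depended on the length used. With the longest transcript, LSAMP took 17.5% to 19.8% of the summed level per kb over the 4 libraries, NTM took 38.0% to 52.4%, IGLON5 took 27.3% to 43.7%, and NEGR1 took 0.250% and 0.524% in the controls. With coding length, LSAMP had the highest mean share over the 4 libraries at 40.4%, and with the union of exons IGLON5 did at 49.4%. Which transcripts these cells use was not analysed here; the annotation lists 23 for NTM and 1 for IGLON5.

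**Figure D3:**
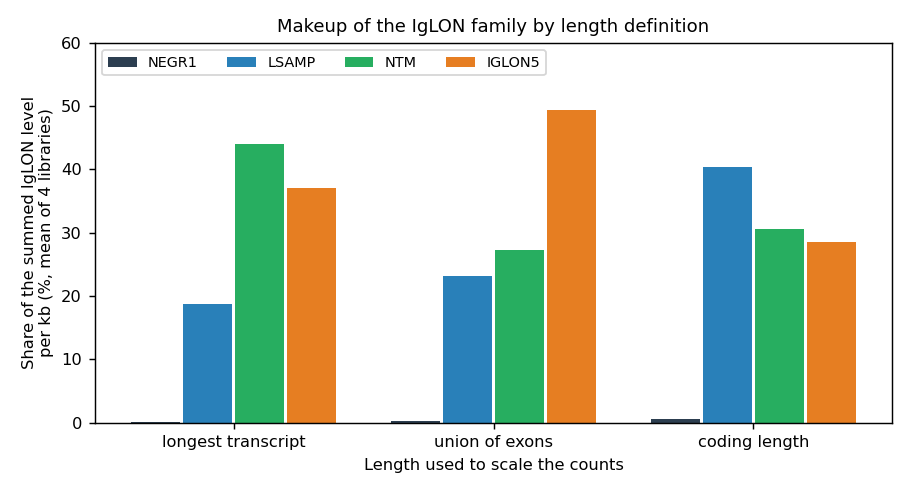
Share of the summed IgLON level per kb (vertical axis, percent, mean of 4 libraries) taken by NEGR1, LSAMP, NTM and IGLON5 when counts are scaled by the longest transcript, the union of exons or the coding length. NEGR1 stays under 1% with each length, while the highest of the other three changes from NTM to IGLON5 to LSAMP.

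The gene bodies of 3 members are very long and that of IGLON5 is short. In the coordinates of the table (GRCh38), NEGR1 (ENSG00000172260) lies at chr1:71395943-72282539 (886.6 kb), LSAMP (ENSG00000185565) at chr3:115802363-117139389 (1337 kb), NTM (ENSG00000182667) at chr11:131370478-132336822 (966.3 kb) and IGLON5 (ENSG00000142549) at chr19:51311644-51330891 (19.2 kb). Other listed genes lie inside the long ones. GDI2P2, inside NEGR1, had 269 and 853 control counts, against 246 and 646 in AP1AR-DT_OE, far more than NEGR1 itself, and did not fall to 0. BZW1P2, inside LSAMP, had 300, 1461, 394 and 719 counts in the same order, PTMAP8 had 0, 3, 5 and 2, and AP004372.1, inside NTM, had 2, 7, 2 and 13. GDI2P2, BZW1P2 and PTMAP8 bear the names of pseudogenes, whose reads can come from their parent genes. ZRANB2-AS2, which overlaps NEGR1 in part, had 4 counts in control 2 and 0 elsewhere. None of the 5 was called. Use of strand in the counting is not given in the sources used here, so reads of genes that overlap on opposite strands cannot be told apart.

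The study asked about the transcription factor NRF1, an activator that binds GC-rich promoters, in the control of NEGR1. NRF1 itself had 573 and 685 control counts, against 665 and 597 in AP1AR-DT_OE, with a log2 fold change of 0.16 (SE 0.47), and was not called. Promoter windows, from 250 bases before to 50 after a gene's start, were held by the RefSeq table (GRCh38.p14) for 4 of the 5 members, with no entry for NEGR1. There were 9 windows, namely 5 of NTM, 2 of OPCML and 1 each of LSAMP and IGLON5. For each of these 4 genes the window richest in CpG is shown, on the strand of the gene, with each CpG in capitals, to set the measured paralogs beside OPCML, which had no row.
LSAMP promoter, chr3:116445438-116445737, minus strand: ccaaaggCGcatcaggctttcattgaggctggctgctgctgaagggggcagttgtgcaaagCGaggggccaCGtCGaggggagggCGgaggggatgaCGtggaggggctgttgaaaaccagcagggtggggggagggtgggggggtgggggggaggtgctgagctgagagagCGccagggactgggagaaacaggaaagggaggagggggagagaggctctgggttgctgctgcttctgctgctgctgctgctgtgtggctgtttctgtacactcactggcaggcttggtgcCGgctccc
NTM promoter, chr11:131911086-131911385, plus strand: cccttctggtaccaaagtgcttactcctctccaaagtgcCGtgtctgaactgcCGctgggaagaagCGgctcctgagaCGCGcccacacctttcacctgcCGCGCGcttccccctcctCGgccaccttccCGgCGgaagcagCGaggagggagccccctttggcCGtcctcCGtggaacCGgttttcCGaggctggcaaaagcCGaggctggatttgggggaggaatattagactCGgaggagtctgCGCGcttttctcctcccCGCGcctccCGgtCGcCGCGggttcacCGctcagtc
IGLON5 promoter, chr19:51311394-51311693, plus strand: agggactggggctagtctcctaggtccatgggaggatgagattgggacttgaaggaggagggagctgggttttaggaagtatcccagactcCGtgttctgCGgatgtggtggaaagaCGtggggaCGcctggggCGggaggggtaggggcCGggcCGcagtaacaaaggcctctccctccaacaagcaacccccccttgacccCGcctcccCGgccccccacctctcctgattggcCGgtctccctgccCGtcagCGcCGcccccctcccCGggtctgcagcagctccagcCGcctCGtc
OPCML promoter, chr11:132943787-132944086, minus strand: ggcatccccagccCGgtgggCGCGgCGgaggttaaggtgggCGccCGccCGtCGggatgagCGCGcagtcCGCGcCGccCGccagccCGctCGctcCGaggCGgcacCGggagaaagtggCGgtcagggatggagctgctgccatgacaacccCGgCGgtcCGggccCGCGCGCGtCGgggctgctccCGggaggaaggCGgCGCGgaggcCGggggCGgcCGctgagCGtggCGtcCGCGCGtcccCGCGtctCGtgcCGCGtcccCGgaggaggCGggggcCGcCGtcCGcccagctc
The OPCML window shown held 50 CpG, and the other OPCML window held 13. Whether CpG content bears on the lack of an OPCML row was not tested. The NTM window shown held 27 (64.7% GC), and the other NTM windows held between 3 and 9. IGLON5 had 16 at 66.7% GC and LSAMP 8 at 64.7%, while the median of all 35116 windows was 14 CpG and 58.7% GC. The NRF1 core motif and the shorter word TGCGCA, which can overlap it, were searched on both strands. They were found in 5.78% and 8.24% of all windows and in none of the 9 windows of these genes. No NEGR1 window was searched, and the NEGR1 region that the study examined lies farther upstream than such windows reach. NRF1 at NEGR1 was therefore not tested.

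The genes whose pattern over the 4 libraries was most like that of a member were named by Pearson's r of log2(normalized count + 1), as a description over 4 points that share their depth and GC trend. For LSAMP they were ELK4, CASD1 and SMAD5, for NTM they were SLMAP, SMARCE1 and TAF7, and for IGLON5 they were LSMD1, ATOH8 and AKR1E2. Such values are common with 4 libraries: 11.67% of 13297 genes had an r above 0.95 with LSAMP, 18.6% with NTM and 2.89% with IGLON5. Among the members, r was 0.915 between LSAMP and NTM, -0.914 between LSAMP and IGLON5 and -0.685 between NTM and IGLON5.

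Genes that share the anchor, the partners or the cleavage of IgLON proteins were described next, and none of them was called. Of the GPI-anchored neuronal surface proteins, 24 of 25 had a row, with 0 called, 9 values above 0 and 15 below, and a median log2 fold change of -0.12, against -0.03 over all genes. THY1, a GPI-anchored immunoglobulin protein of neurons, was the most abundant, with 25497 and 21502 control counts, against 24710 and 21028 in AP1AR-DT_OE (log2 fold change 0.07, SE 0.47). The proteoglycan GPC1 gave -0.11 and the prion protein PRNP -0.22. EFNA1, an ephrin ligand, had 181 and 689 control counts, against 611 and 614 in AP1AR-DT_OE (0.79, SE 0.55), where control 1 stood apart from the other 3 libraries. Without control 1 its log2 fold change was 0.27, and without control 2 it was 1.64 (adjusted p = 0.190). With the replicate block it was 0.94, at an unadjusted p of 0.0153 and an adjusted p of 1.00 in DESeq2. The contactin CNTN3 had 53, 116, 36 and 52 counts (-0.72, SE 0.75). In 6 of the 24 both AP1AR-DT_OE libraries lay below both controls, and in 1 above, where 7.14% and 6.59% of all genes did so. Chosen after their values were seen, these were GPC4, CNTN3, CNTN5, GFRA1, GFRA2 and RTN4RL1. GFRA1, a GPI-anchored co-receptor for GDNF, had 51 and 64 control counts, against 25 and 20 in AP1AR-DT_OE (-1.18, SE 0.87), and GPC4 had 35, 60, 17 and 14 (-1.41, SE 0.97). In the DESeq2 fit on all 4 libraries without a block or GC correction, no gene of this list had an unadjusted p under 0.05.

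The enzymes that build and attach the anchor were measured nearly in full. Of the synthesis genes, 16 of 17 had a row, with a median log2 fold change of -0.01, and DPM2, which also serves the synthesis of dolichol-phosphate-mannose, was the most abundant, with 0.14 (SE 0.44). PIGQ gave -0.03 and PIGO -0.09, and the largest values among genes with a mean of at least 50 were -0.25 for PIGX and -0.23 for PIGM, which act together as the first mannosyltransferase. Of the transamidase and remodelling genes, 10 of 10 had a row, with a median of -0.03. GPAA1, a transamidase subunit, had 5893 counts in control 1, against 1655 in control 2, 2032 in AP1AR-DT_OE 1 and 1191 in AP1AR-DT_OE 2 (-1.23, SE 0.65). Its value rested on control 1, since it was 0.42 without that library, and without control 2 it was called (DESeq2 adjusted p = 0.00824). The other subunits PIGT and PIGS gave 0.06 and -0.04, TMEM8A gave -0.02, and PGAP1, which trims the anchor's lipid, gave -0.72 (SE 0.65).

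Of the NEGR1 partners and sheddases, 7 of 7 had a row, with a median log2 fold change of -0.03. FGFR2, a receptor that NEGR1 binds in cortical neurons, had 15 and 11 control counts, against 10 and 12 in AP1AR-DT_OE, and was named after its values were seen. FGFR1, of the same receptor family, gave -0.02 (SE 0.47), the adhesion molecule NCAM1 gave 0.10, and the sheddase ADAM10 gave -0.23 with 247 and 786 control counts, against 308 and 422 in AP1AR-DT_OE. ADAM17 gave -0.17, and TSPAN14, a tetraspanin that escorts ADAM10, gave -0.03. Of the nectins and CADM proteins, immunoglobulin adhesion molecules with a transmembrane segment in place of the anchor, 8 of 8 had a row, with a median of -0.05. The most abundant were PVRL2 with 0.01 and PVR with 0.00, and the largest values were -0.33 for CADM1 (SE 0.67) and -0.22 for PVRL1.

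**Figure D4:**
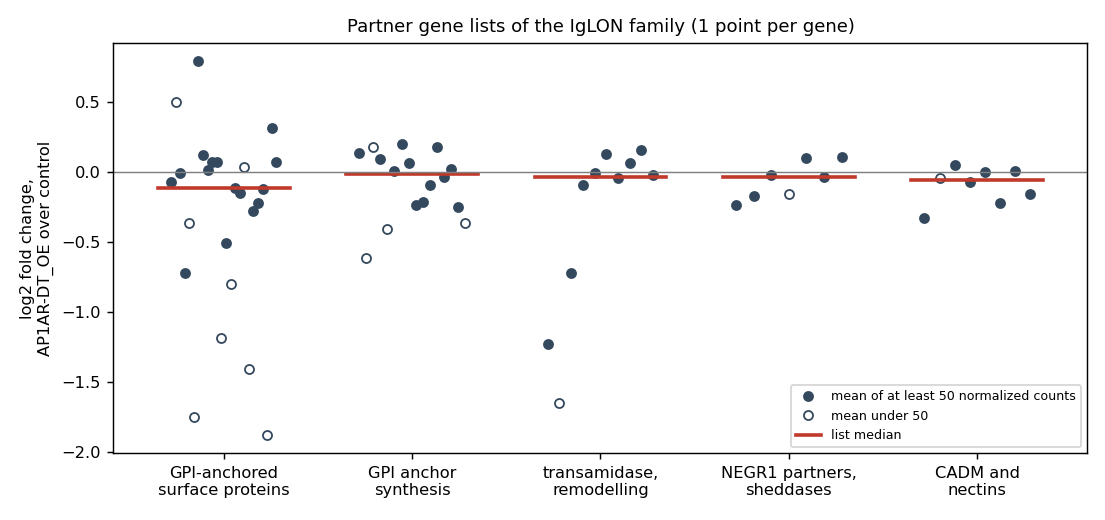
Log2 fold change of AP1AR-DT_OE over control (vertical axis) for each measured gene of the 5 partner lists, with filled points for genes with a mean of at least 50 normalized counts, open points for lower genes and red bars for list medians. The medians lie between -0.12 and -0.01, and the values below -1.0 belong to GPAA1 and to genes with a mean under 50.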

How the data were processed

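RNA of 4 SK-N-SH libraries was measured by RNA-seq (2 control, 2 AP1AR-DT_OE). Per the study's methods the authors aligned paired 150-base reads to hg19 with HISAT2 and took counts from StringTie, while the submitters' processing notes list TopHat2 2.0.4, HTSeq, Cuffdiff and edgeR 2.6.12. Counts per gene were deposited as whole, unnormalized numbers. The deposited columns of the authors' own fold changes and p-values were not used. The annotation used for counting is not given in the sources used here. Table coordinates are GRCh38.

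Counts were tested with DESeq2 1.42.0 in R 4.3.3 (Wald test, two-sided, no covariate, Benjamini-Hochberg adjustment over 24014 genes, called at adjusted p under 0.05), and normalized by size factors. Total counts per library, which are not numbers of read pairs, ran from 21988065 to 26184599. The smallest exact two-sided p of 2 against 2 libraries is 0.33. Alternatives were edgeR 4.0.16 with and without its filter, TMM factors, other filters and tests, the replicate block, GC correction (lowess, span 0.3), counts divided by 4, and leaving out each library, where the fold changes were planned and their DESeq2 p-values and calls, like all values of PRRX1, GFRA1, GPC4 and FGFR2, were added after seeing the data. Lengths and GC are of the longest GENCODE v44 transcript mapped to GRCh37. Coding sequences, aligned with MAFFT 7.526 and Biopython 1.88, took the place of a planned protein comparison, and 2 longer NRF1 words were not searched. The procedure was run on simulated counts with set changes in genes with a mean of at least 50 normalized counts. The simulation had no GC or replicate trend, so it does not cover those trends or a gene as low as NEGR1. Named genes were the members, AP1AR-DT, NRF1, genes inside members, the 3 genes most like each member, and of each list those called, the 3 most abundant and the 2 with the largest change at a mean of at least 50. The members and lists were chosen with earlier results of these data known.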

Additional observations from a re-analysis of the deposited data

How the results depend on the processing

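The measured members were called under none of the alternatives run. With all 4 libraries NEGR1 kept a negative log2 fold change, from -6.50 to -4.00, with unadjusted p between 0.0252 and 0.197, and it had no value under edgeR's default filter or the filter of 10 counts in 2 libraries and no adjusted p with TMM factors in DESeq2. LSAMP turned to 0.020 under the GC correction and 0.049 with the GC correction and the replicate block. The number of genes called, 33, was 0 in edgeR, where 112 had an unadjusted p below 0.05, 7 with no expression filter, 15 with counts divided by 4 and 55 with the GC correction. AP1AR-DT had 6.60 in edgeR's quasi-likelihood test with an adjusted p of 0.39. The shares of the summed level per kb were 0.528% (NEGR1), 40.4% (LSAMP), 30.6% (NTM) and 28.5% (IGLON5) with coding length, and 23.1% (LSAMP), 27.2% (NTM) and 49.4% (IGLON5) with the union of exons. Values under 0.02 in size turned sign for PVRL2 under the GC correction (-0.013, and -0.014 with the block) and for PVR under edgeR without a filter and TMM factors (-0.0012 in both). The causes were not tested.

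The replicate numbers are shared by the groups, but nothing in the labels says that they mark a batch; same-numbered libraries deviated together with a correlation of 0.412 across 16730 genes. With the replicate block DESeq2 called 37 genes, 60 with the GC correction too, and edgeR without a filter called 201, with no member among them. NEGR1 had -5.73 with the block. EFNA1 had an unadjusted p of 0.0153 with the block, 0.0224 with the GC correction and block and 0.00222 with the block in edgeR, where its adjusted p was 0.188, and PRRX1 was called in all 3 of these fits. PIGQ turned to 0.00074, FGFR1 to 0.011 and TMEM8A to 0.014 with the block, and TMEM8A to 0.00084 with the block in edgeR.

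Without 1 library the number called ran from 45 to 90 (90 without control 1, 75 without control 2, 50 without AP1AR-DT_OE 2) and that of the transamidase list from 0 to 1. The log2 fold change ran from -6.26 to -5.14 for NEGR1 (unadjusted DESeq2 p of 0.0884 without control 1, 0.33 without control 2, 0.0757 without AP1AR-DT_OE 1 and 0.0842 without AP1AR-DT_OE 2), -0.10 to 0.073 for LSAMP, -0.32 to 0.21 for NTM, -0.16 to 0.48 for IGLON5, 6.02 to 8.05 for AP1AR-DT and -0.00032 to 0.32 for NRF1. Partner genes whose sign turned ran from -0.27 to 0.53 (THY1), -0.55 to 0.56 (GPC1), -0.64 to 0.39 (PRNP), -0.052 to 0.37 (DPM2), -0.34 to 0.37 (PIGQ), -0.51 to 0.53 (PIGO), -0.61 to 0.24 (PIGX), -0.34 to 0.41 (TMEM8A), -0.23 to 0.45 (PIGT), -0.37 to 0.40 (PIGS), -1.97 to 0.42 (GPAA1), -0.31 to 0.33 (TSPAN14), -0.34 to 0.40 (FGFR1), -0.12 to 0.28 (NCAM1), -0.55 to 0.35 (ADAM17), -0.68 to 0.44 (ADAM10), -0.31 to 0.44 (PVRL2), -0.36 to 0.51 (PVR), -0.73 to 0.61 (PVRL1), -0.90 to 0.25 (CADM1), -0.57 to 0.43 (FGFR2). Others kept their sign, from 0.27 to 1.64 (EFNA1), -0.98 to -0.39 (CNTN3), -1.10 to -0.41 (PGAP1) and -2.71 to -0.66 (PRRX1). The lone library left in a group was assumed to vary like the other group. Among the members depth limits NEGR1 most, with about 6.25 read pairs in all.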
